A study of Mus musculus with 24 samples.

Results

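Collagens are the main structural proteins of the extracellular matrix, and RNA of the genes that encode their chains was counted in 3 tissues of male C57 mice, 8 to 12 weeks old: skin of the hind paw, the dorsal root ganglia (DRG) and the lumbar spinal cord. Every gene whose symbol names a collagen chain was taken (Col, a type number, a, a chain number), and a gene was kept where it had at least 10 counts in at least 3 libraries of a tissue. Of the 22609 gene symbols, 43 matched and 43 were kept in at least 1 tissue. All 43 were kept in DRG, 41 in paw skin and 40 in spinal cord. The chains were grouped as fibrillar (11 genes), basement membrane (8 genes) and other (24 genes, of which 22 were kept in paw and 21 in spinal cord). Col10a1 and Col6a6 were left out in paw, and Col10a1, Col17a1 and Col25a1 in spinal cord.

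The mice had been injected in the hind paw (intraplantar) with an agonist antibody against the lymphotoxin beta receptor (LTβR), 10 µg each time, or with 10 µg of IgG. LTβR, a member of the tumour necrosis factor receptor superfamily, activates non-canonical NF-κB. Paw punch biopsies and DRG of levels L3 to L5, both from the injected side, formed 3 groups of 3 libraries each: a control group taken 1 day after IgG, a day-1 group taken 1 day after a first agonist injection, and a day-6 group that had received 2 agonist injections. The sample titles list these at 1 and 3 days, and the design text gives one day as the gap. The 2 sources also differ on whether day 6 is counted from the first injection or after both. For spinal cord, agonist groups of 3 libraries each were available for day 1 and day 6, and no control group is analysed here. Day 6 differed from day 1 in both time and number of injections, and its control had been taken at 1 day. The labels do not say that libraries of a group came from separate mice, so p-values measure only the spread between these samples.

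Collagen chains join into helical molecules that the cell folds and modifies in the endoplasmic reticulum, secretes, trims and crosslinks. Fibrillar collagens build the tensile fibrils of dermis and of the sheaths around nerve. Basement membrane collagens form the sheets on which epithelium, endothelium, muscle fibres and Schwann cells rest, and most of the other collagens decorate fibrils, anchor cells or form finer filaments. In bulk RNA a lower collagen level can come from fewer cells of a type or from less RNA per cell, and these cannot be told apart.

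In units of 1e6 reads counted in genes, depth per library ranged from 24.2 to 41.0 in paw, 21.6 to 34.2 in DRG and 15.7 to 26.3 in spinal cord. Levels are given as CPM, counts scaled to 1e6 counted reads and normalised within a tissue. The tissue labels matched their defining markers: the summed CPM of 5 keratinocyte genes was at least 43220 in every paw library, that of 5 sensory neuron genes at least 4036 in every DRG library, and that of 5 glial and neuronal spinal cord genes at least 3126 in every cord library. Some libraries stood apart. Paw control library 1 had 167 CPM of 10 summed skeletal muscle genes against 3890 to 29830 in the other paw libraries. DRG control libraries 2 and 3 and day-1 library 1 held 3809 to 4902 CPM of those muscle genes against 22.3 to 378 in the other DRG libraries. In DRG control library 1, 31.5% of uniquely placed reads fell in no gene, against 13.1% to 13.8% in the other DRG libraries. Spinal cord day-1 library 2 and day-6 libraries 1 and 3 held 388 to 550 CPM of 8 summed meningeal genes against 136 to 188 in the other 3.

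Collagen RNA was most abundant in paw skin and least in spinal cord, and the tissues differed in which chains made it up. Collagens took 0.682% to 1.2% of counted reads in paw libraries, 0.489% to 0.718% in DRG libraries and 0.0878% to 0.235% in spinal cord libraries. The paw and DRG ranges met at their ends, and cord lay below both. Col1a1, Col1a2 and Col3a1, the chains of the type I and III fibrils of connective tissue, made up 56.1% to 70.2% of collagen CPM in paw, 40.0% to 50.9% in DRG and 17.9% to 34.1% in cord. For this share, the range in each tissue lay wholly above that in the next. Col4a1 and Col4a2, which form the basement membrane network found in nearly all tissues, made up 4.37% to 9.42% in paw, 15.8% to 22.8% in DRG and 17.8% to 23.8% in cord, so that the DRG and cord ranges overlapped and lay above paw.

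**Figure D1:**
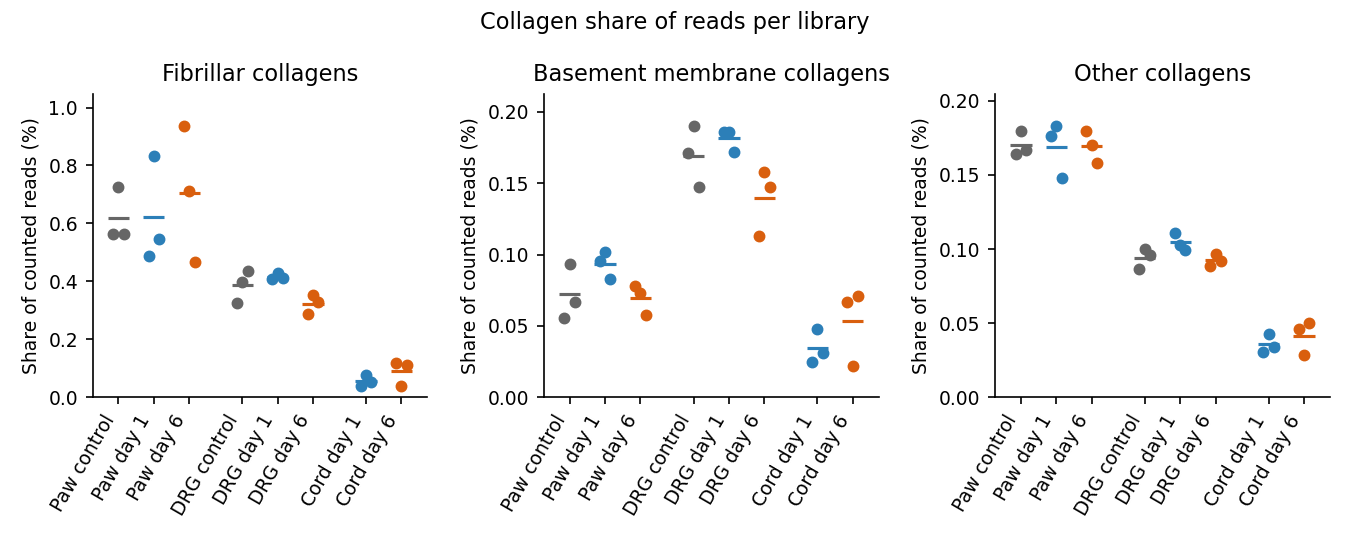
Share of all counted reads (percent, vertical axis) taken by fibrillar, basement membrane and other collagens in each library (points) of each tissue and group, with the group mean as a line. Fibrillar collagens were highest in paw and basement membrane collagens highest in DRG, and in DRG the 3 day-6 points of the fibrillar panel lie below the 3 day-1 points.

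Per kilobase of exon, the leading paw chain in the control group was Col3a1, at 452 ± 61.2 CPM per kb (SD, n = 3), followed by Col1a2 at 337 ± 65.7 and Col1a1 at 208 ± 32. Col17a1, the transmembrane collagen of the hemidesmosomes that fasten basal keratinocytes, came next at 147 ± 19.7 CPM per kb. In DRG controls the order was Col1a2 at 268 ± 40.4, Col1a1 at 152 ± 46.7, Col4a1 at 115 ± 19.0 and Col3a1 at 103 ± 17.0 CPM per kb, and the last 3 did not differ beyond their spread. Col5a3, a fibrillar chain of type V collagen, stood at 82.8 ± 8.33 CPM per kb in DRG controls. In the day-1 cord group Col1a2 led at 29.7 ± 14.9 CPM per kb, with Col4a2 at 23.1 ± 6.83 and Col16a1, a chain that associates with fibrils, at 18.2 ± 2.09, and these did not differ beyond their spread.

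In the joint fit of the 18 paw and DRG libraries, 37 of 43 collagens differed between paw control and DRG control, 17 higher in paw and 20 higher in DRG, with edgeR's quasi-likelihood F test and Benjamini-Hochberg adjustment over all genes. Of all genes tested, 81.5% differed in that comparison (39.9% higher and 41.6% lower in paw), so the collagen share is near the background. Among fibrillar chains 3 were higher in paw and 6 higher in DRG, among basement membrane chains 4 and 3, and among the others 10 and 11. The 6 that did not pass were Col1a1, Col1a2, Col4a3, Col6a4, Col8a1 and Col22a1. Col1a1 differed by a log2 fold change of 0.47 ± 0.28 (SE; edgeR adjusted p = 0.123; 95% interval -0.11 to 1.06).

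Among the chains higher in paw was a pair that anchors the epidermis. Col17a1 read 943, 800 and 727 CPM in paw control libraries 1, 2 and 3 and 0.751, 0.910 and 0.772 CPM in the DRG controls, with a log2 change of 10.00 ± 0.29 (edgeR adjusted p = 9.57e-14). The DRG values rest on 16 to 25 counts per library, and the groups lie about 3 orders of magnitude apart. Col7a1, which forms the anchoring fibrils below the epidermis, read 95.9, 108 and 109 CPM in paw against 18.6, 18.6 and 13.4 CPM in DRG. Its log2 fold change was 2.66 ± 0.15 (edgeR adjusted p = 1.44e-10), and the groups did not overlap. Col3a1 was higher in paw by 2.16 ± 0.24 on the log2 scale (edgeR adjusted p = 4.21e-07), at 2499, 2867 and 2187 CPM against 465, 644 and 608 CPM.

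The chains higher in DRG included several that are also known from cartilage or nerve. Col9a2 and Col9a3, chains of the fibril-associated type IX collagen, fell by 5.71 ± 0.43 and by 2.68 ± 0.18 on the log2 scale in paw relative to DRG (edgeR adjusted p = 5.73e-09 and 1.21e-09). The remaining type IX chain, Col9a1, also passed but did not share this direction. It read 0.00981, 4.699 and 3.598 CPM per kb in paw controls and 0.0572, 0.204 and 0.07839 in DRG controls. The paw control with little muscle RNA lay below all DRG controls, and the other paw controls lay above them. Col2a1, the main fibrillar chain of cartilage, read 8.78, 8.85 and 12.3 CPM in DRG controls and 0.161, 0.329 and 0.432 CPM in paw controls, a log2 change of -4.97 ± 0.35 (edgeR adjusted p = 2.3e-09). The transmembrane chain Col23a1 read 183, 209 and 162 CPM in DRG against 12.0, 19.7 and 13.4 CPM in paw. Col28a1, known from Schwann cells of peripheral nerve, read 105, 112 and 114 CPM in DRG against 10.2, 19.2 and 14.2 CPM in paw, and Col5a3 read 504, 559 and 457 CPM in DRG against 35.4, 106 and 81.6 CPM. None of these 3 chains had overlapping groups, with log2 fold changes of -3.59 ± 0.24, -2.90 ± 0.21 and -2.75 ± 0.32 (edgeR adjusted p = 1.18e-09, 4.04e-09 and 1.22e-06). Col15a1, a basement membrane collagen of vessels, muscle and nerve, read 267, 324 and 298 CPM in DRG against 33.8, 64.5 and 66.2 CPM in paw, a log2 change of -2.41 ± 0.21 (edgeR adjusted p = 4.01e-08).

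The promoter stretches of 5 chains that set the tissues apart or led the changes in DRG are shown, from RefSeq promoter windows on GRCm38.p6. Of the 43 genes, 35 had such a window. Each stretch runs 5′ to 3′ on the gene's own strand up to the base before the annotated start, or, for Col4a5 and Col17a1, up to the first base that a GENCODE M21 exon covers. Capitals mark 3 short promoter motifs, each searched on both strands. The TATA box was searched as TATAAA. A further motif was CCAAT. The GC box was searched as GGGCGG and is shown in Col4a6 as it reads on the other strand. The motifs do not overlap one another in these stretches. Col3a1 lies at chr1:45311288-45311537 on the plus strand, Col15a1 at chr4:47207762-47208011 on the plus strand, Col17a1 at chr19:47692095-47692292 on the minus strand, Col4a5 at chrX:141475169-141475384 on the plus strand and Col4a6 at chrX:141474077-141474326 on the minus strand.
Col3a1: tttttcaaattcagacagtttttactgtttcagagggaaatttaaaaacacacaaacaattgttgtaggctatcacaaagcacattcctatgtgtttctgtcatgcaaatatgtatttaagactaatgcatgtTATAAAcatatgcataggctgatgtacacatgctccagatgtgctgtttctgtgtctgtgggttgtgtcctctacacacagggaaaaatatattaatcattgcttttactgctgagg
Col15a1: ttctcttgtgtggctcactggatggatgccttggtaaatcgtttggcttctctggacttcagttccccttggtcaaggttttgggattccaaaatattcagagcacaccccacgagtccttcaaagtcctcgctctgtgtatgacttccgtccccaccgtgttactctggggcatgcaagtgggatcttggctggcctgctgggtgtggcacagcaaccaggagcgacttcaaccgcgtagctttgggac
Col17a1: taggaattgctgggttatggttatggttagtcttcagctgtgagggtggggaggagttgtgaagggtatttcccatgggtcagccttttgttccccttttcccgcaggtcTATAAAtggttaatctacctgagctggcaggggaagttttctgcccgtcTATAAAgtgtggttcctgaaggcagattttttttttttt
Col4a5: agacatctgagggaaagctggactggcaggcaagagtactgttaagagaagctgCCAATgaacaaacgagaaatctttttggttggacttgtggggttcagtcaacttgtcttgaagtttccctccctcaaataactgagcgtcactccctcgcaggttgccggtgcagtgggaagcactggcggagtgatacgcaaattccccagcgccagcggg
Col4a6: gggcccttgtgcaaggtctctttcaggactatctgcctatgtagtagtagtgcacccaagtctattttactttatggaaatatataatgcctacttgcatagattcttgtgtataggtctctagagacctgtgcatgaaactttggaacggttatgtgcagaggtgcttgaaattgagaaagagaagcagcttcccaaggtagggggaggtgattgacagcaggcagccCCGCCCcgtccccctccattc

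In these letters Col3a1 holds a TATAAA that begins 117 bases before the start, and Col17a1 holds a pair of them at 140 and 91 bases. Col4a5 holds a CCAAT at 196 bases and Col4a6 a GC box at 21 bases before the start, and Col15a1 holds none of the 3 motifs. Over the full windows of 250 bases, TATAAA was in 5 of the 35 collagen genes (14.3%) against 12.4% of 32851 windows, CCAAT in 13 (37.1%) against 33.8%, and the GC box in 21 (60%) against 32.7%. A collagen gene counted if any of its windows held the motif (38 windows for 35 genes), while the background counts single windows. A match is a description of the letters and not evidence of a site.

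Some type IV chain genes lie head to head. For 2 such pairs the ranges of the ratio between the chains did not overlap between tissues, and for another pair they did. The RefSeq starts of Col4a1 and Col4a2 are 21 bases apart and those of Col4a5 and Col4a6 are 1343 bases apart on GRCm38.p6, with each pair on opposite strands. Per kilobase of exon, Col4a5 exceeded Col4a6 by a factor of 1.28 to 1.89 (median 1.64) in the 9 paw libraries, 14.9 to 39.3 (median 20.2) in the 9 DRG libraries and 3.3 to 4.42 (median 4.01) in the 6 cord libraries. The 3 ranges did not overlap. The DRG ratio rests on 6 to 17 counts of Col4a6 per library. Both genes were higher in paw than in DRG controls, Col4a6 by 5.99 ± 0.29 and Col4a5 by 1.83 ± 0.22 on the log2 scale (edgeR adjusted p = 2.2e-11 and 1.2e-06). Chains of these 2 genes take part in a collagen network of the epidermal basement membrane.

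The ratio of Col4a1 to Col4a2 per kilobase was 1.09 to 1.25 in paw, 1.29 to 1.44 in DRG and 0.641 to 1.01 in cord, again with no overlap. Col4a3 and Col4a4, the third head-to-head pair, had ratios of 0.61 to 1.41 in paw, 0.922 to 2.25 in DRG and 2.05 to 4.53 in cord, and neighbouring ranges overlapped. For Col4a1 and Col4a2, the ratio within cord was 0.641, 0.809 and 0.677 at day 1 and 1.01, 0.756 and 0.932 at day 6. It was highest in day-6 library 1, which also had the highest sum of meningeal genes. It was lowest in day-1 library 1, which had the lowest sum. The ratio of Col1a1 to Col1a2, whose products join in 1 type I molecule, was 0.551 to 0.693 in paw, 0.453 to 0.664 in DRG and 0.432 to 0.617 in cord, and these ranges overlapped. Ratios between genes depend on the exon lengths used, which come from an annotation other than the authors', and the comparison of 1 ratio across tissues does not unless isoforms differ.

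**Figure D2:**
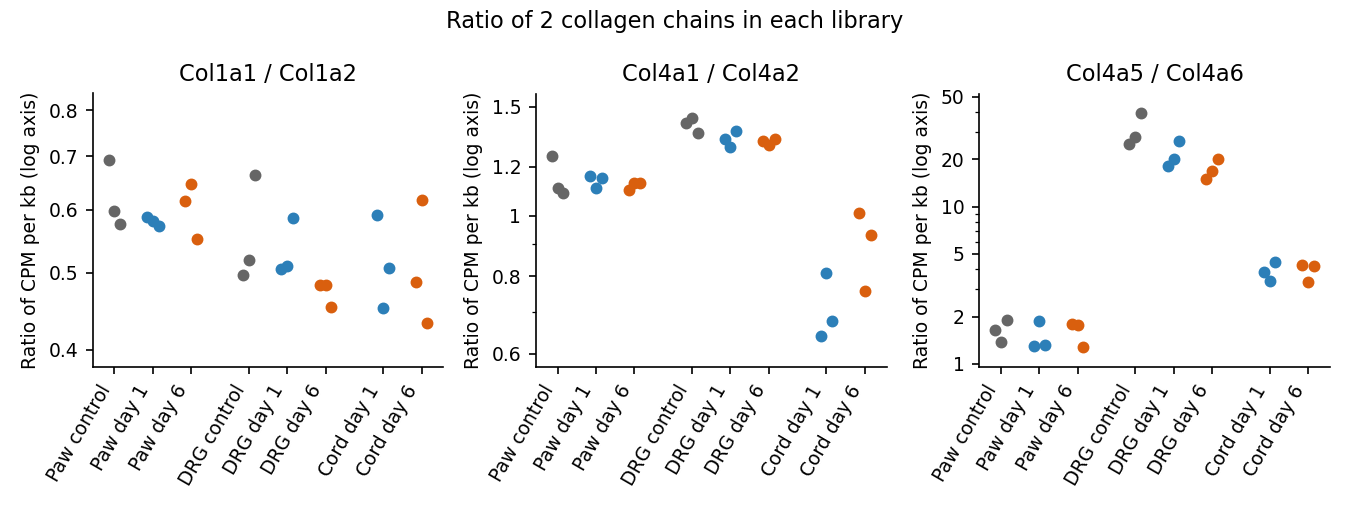
Ratio of CPM per kilobase of exon between 2 chains (log axis) in each library, by tissue and group. Col1a1/Col1a2 overlaps between tissues, Col4a1/Col4a2 separates DRG (1.29 to 1.44) from cord (0.641 to 1.01), and Col4a5/Col4a6 spans from 1.28 in paw to 39.3 in DRG.

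The next question was whether LTβR stimulation of the paw changed collagen RNA in the paw itself. No collagen passed the test in paw. At day 1, edgeR's quasi-likelihood F test with Benjamini-Hochberg adjustment called 0 of 41 collagens, against 1 of 15287 genes (0.00654%), and limma voom called 0 and DESeq2 1 (Col15a1, DESeq2 adjusted p = 0.045). The direction was mostly up: 33 of 41 log2 fold changes were above 0, with a median of 0.36 against 0.006 for all genes. The medians were 0.45 for fibrillar, 0.35 for basement membrane and 0.35 for other collagens. Paw control library 1, the one with little muscle RNA, was the lowest of all 9 paw libraries for 24 of 41 collagens (58.5%, against 28.1% of all genes tested). It was also the lowest for summed endothelial (202 CPM against 292 to 425 CPM) and mural genes (504.7 CPM against 877.5 to 1925 CPM). The same held for Schwann cell genes (396 CPM against 679 to 1194 CPM). The part of these 3 lists in the collagen values was not tested. Without that library the class medians were 0.13, 0.23 and 0.21, and with the skeletal muscle score as a covariate they were 0.08, 0.22 and 0.11.

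Of the members, 4 had an unadjusted p under 0.05 at day 1 (10.6% of all genes did), 3 higher and 1 lower. Col15a1 read 33.8, 64.5 and 66.2 CPM in control, and 82.3, 114 and 97.5 CPM at day 1. All 3 day-1 values were above all 3 controls, with a log2 change of 0.84 ± 0.25 (edgeR adjusted p = 0.367). Without control library 1 the log2 fold change was 0.60 (edgeR adjusted p = 0.786). Col27a1, a minor fibrillar chain, read 8.30, 15.8 and 15.6 CPM in control and 20.9, 29.2 and 19.0 CPM at day 1, also without overlap, a log2 change of 0.80 ± 0.28 (edgeR adjusted p = 0.405). Col8a1, a short-chain collagen of vessel walls, gave 0.61 ± 0.27 (edgeR adjusted p = 0.469), with overlapping groups.

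The chain that was lower was Col17a1, at 943, 800 and 727 CPM in control and 599, 558 and 635 CPM at day 1. All 3 day-1 values were below all 3 controls, and the log2 fold change was -0.46 ± 0.15 (edgeR adjusted p = 0.4). Keratinocyte markers moved the same way, with 48580 to 83990 CPM summed over 5 genes in control and 43220 to 50710 CPM at day 1, none of them at 0, and control library 1 was the highest for both. Without that library the log2 fold change of Col17a1 was -0.34. The part of the keratinocyte markers in the Col17a1 values was not tested. Over all collagens, groups did not overlap for 3 higher and 1 lower at day 1, against 6.4% and 8.6% of all genes.

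The abundant dermal chains spread widely among replicates. Col1a1 read 1157, 1450 and 1094 CPM in control, 976, 1680 and 1019 CPM at day 1 and 1804, 1391 and 801 CPM at day 6. The 3 groups overlapped, and the highest and lowest of the 9 values were both at day 6. Col3a1 read 2187 to 2867 CPM in control, 1780 to 3219 CPM at day 1 and 2016 to 3941 CPM at day 6, again with overlapping groups. Their log2 fold changes against control were -0.01 ± 0.31 and -0.05 ± 0.29 at day 1 and 0.11 ± 0.31 and 0.25 ± 0.29 at day 6. The 95% interval for Col1a1 at day 6 ran from -0.60 to 0.82.

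At day 6 the paw had 0 of 41 collagens called by edgeR, against 108 of 15287 genes (0.706%), while limma voom called 0 and DESeq2 2 (Col6a4 and Col14a1, DESeq2 adjusted p = 0.00199 and 0.00493). The median collagen log2 fold change was 0.13 against -0.02 for all genes, with 23 of 41 above 0, and class medians of 0.22 for fibrillar, 0.08 for basement membrane and 0.002 for other collagens. Leaving out 1 library at a time, these medians took either sign, from -0.15 to 0.37, -0.01 to 0.27 and -0.23 to 0.29, and the count of 108 genes ranged from 0 to 155, with 0 without control library 2 or 3 or day-6 library 1 or 2. At an unadjusted p under 0.05 stood 5 collagens, 3 higher and 2 lower, and 9.74% of all genes did so.

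Col6a4, a type VI chain related to the α3 chain, read 0.0805, 0.411 and 0.118 CPM in control, 0.309, 0.436 and 0.268 CPM at day 1 and 1.09, 1.73 and 1.02 CPM at day 6. All 3 day-6 values lay above every other paw value, but the counts were low, 2 to 10 per control library and 33 to 76 per day-6 library. The log2 fold change at day 6 was 2.65 ± 0.53 (edgeR adjusted p = 0.0725). Col14a1, a fibril-associated collagen of dermis, read 18.6, 29.9 and 25.3 CPM in control, 43.8, 39.1 and 24.0 CPM at day 1 and 59.1, 49.6 and 40.2 CPM at day 6. The day-6 values lay above all controls, with a log2 change of 1.01 ± 0.26 (edgeR adjusted p = 0.153), and it was 0.88 without control library 1 (edgeR adjusted p = 0.283). Summed fibroblast markers, 7 genes with none at 0, overlapped between the groups, at 2581 to 3152 CPM in control and 2791 to 3370 CPM at day 6.

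Col17a1 remained below all controls at day 6, at 520, 618 and 722 CPM, with a log2 change of -0.41 ± 0.15 (edgeR adjusted p = 0.394). Col16a1 read 87.7, 101 and 106 CPM in control and 127, 119 and 116 CPM at day 6, a log2 fold change of 0.30 ± 0.12 without overlap (edgeR adjusted p = 0.454). Col2a1 was read with 4 to 11 counts per control library and 2 to 4 per day-6 library, and its log2 change of -1.88 ± 0.60 (edgeR adjusted p = 0.289) rests on those counts. Groups did not overlap for 4 collagens higher and 3 lower at day 6, against 8.22% and 5.87% of all genes.

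Between the 2 agonist groups of paw, day 6 against day 1, edgeR called 0 of 41 collagens and 157 of 15287 genes (1.03%), limma voom called 2 collagens and DESeq2 2 (Col2a1 and Col6a4). At an unadjusted p under 0.05 were 8 collagens, 2 higher and 6 lower at day 6, against 14% of all genes. The lower ones included Col2a1 (-2.64 ± 0.56, edgeR adjusted p = 0.0714), Col11a2 (-1.45 ± 0.49, edgeR adjusted p = 0.237) and Col11a1 (-1.30 ± 0.49, edgeR adjusted p = 0.289), the fibrillar chains that cartilage uses. Col11a1 read 16.5, 15.8 and 6.43 CPM at day 1 and 6.89, 4.42 and 4.44 CPM at day 6, where day-1 library 3 lay within the day-6 range. The 9 summed cartilage and bone markers read 177, 184 and 73.5 CPM at day 1 and 65.1, 48.3 and 57.1 CPM at day 6, with 1 to 3 of the 9 genes at 0 in each of these libraries, and their part in the Col2a1 and Col11 values was not tested. Col6a4 was higher at day 6 by 1.92 ± 0.49 (edgeR adjusted p = 0.121) and Col16a1 by 0.36 ± 0.12 (edgeR adjusted p = 0.236). The basement membrane median was -0.29, with Col4a1 at 388, 368 and 287 CPM at day 1 and 277, 246 and 182 CPM at day 6, without overlap, a log2 change of -0.56 ± 0.24 (edgeR adjusted p = 0.34). Groups did not overlap for 2 collagens higher and 6 lower at day 6, against 12.7% and 9.57% of all genes.

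**Figure D3:**
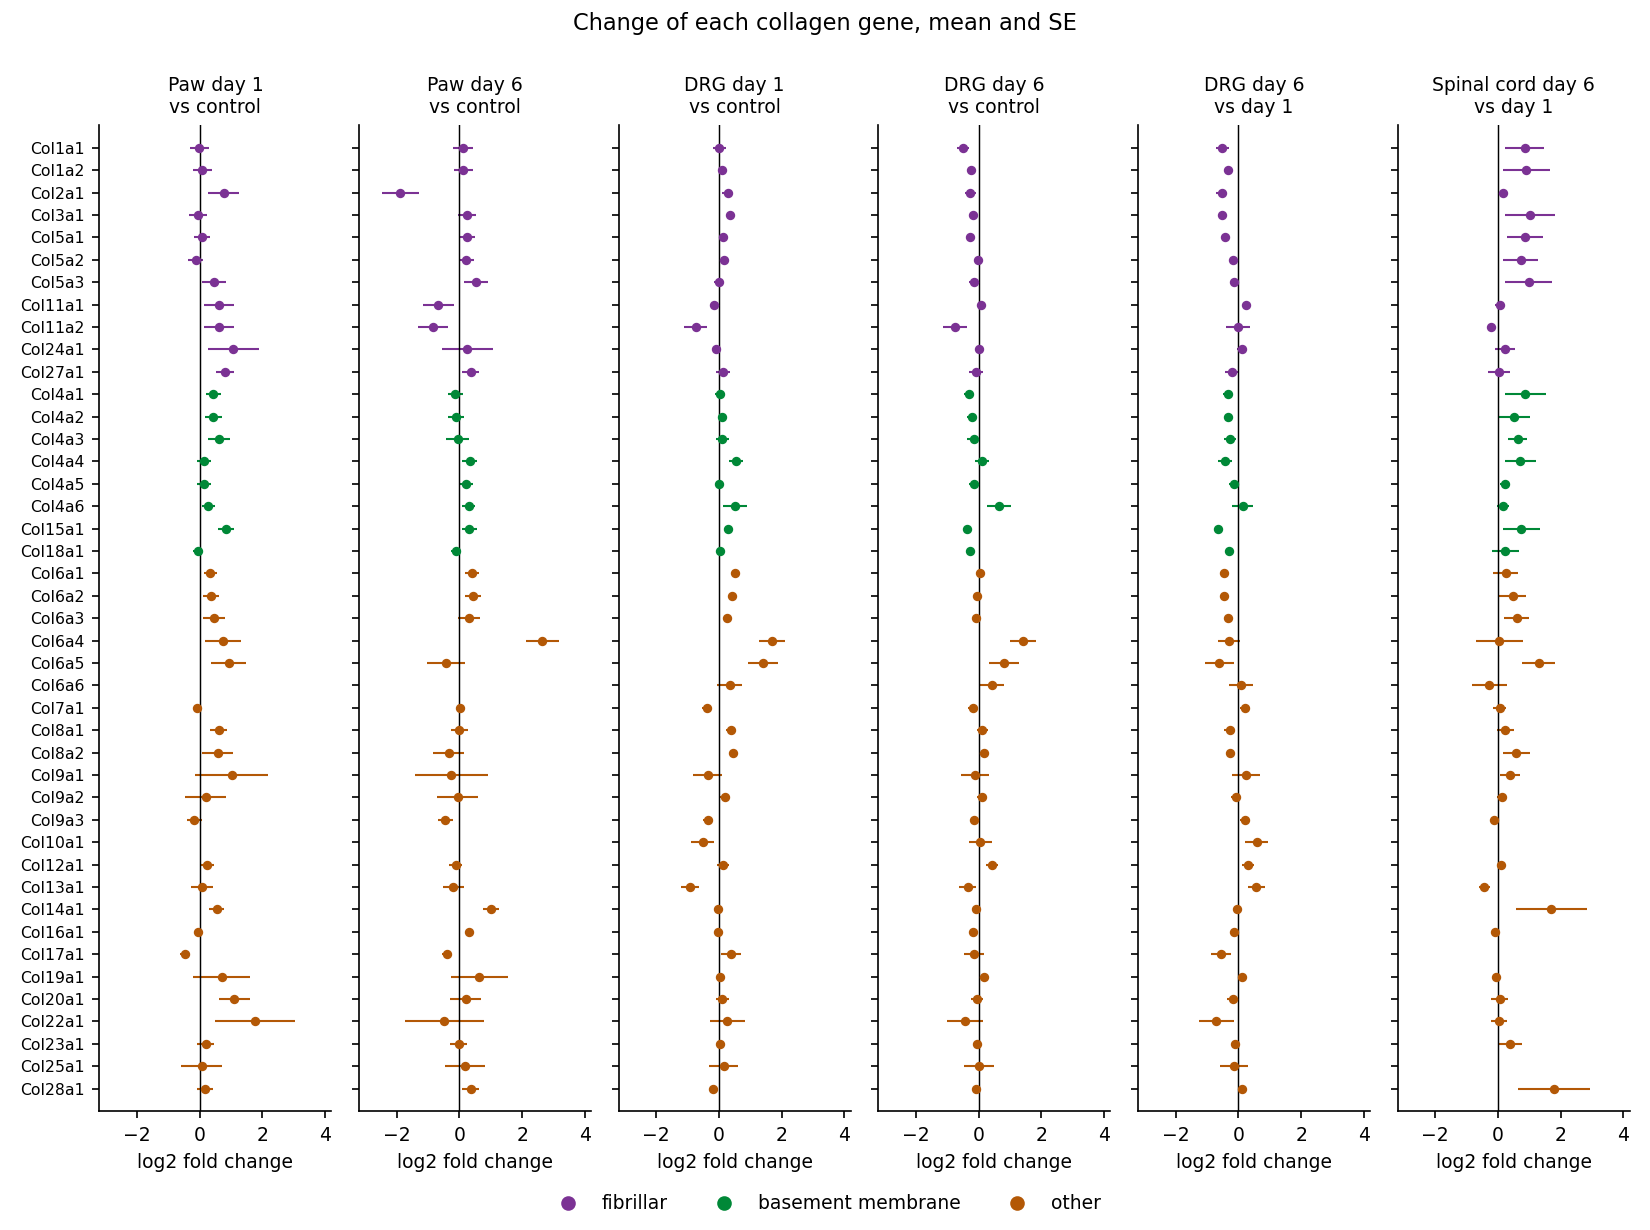
Log2 fold change (point) and SE (bar) of every kept collagen gene in 6 comparisons, coloured by class. In DRG most points lie right of 0 at day 1 (31 of 43) and left of 0 for day 6 against day 1 (31 of 43), and the cord panel shows wide bars with 34 of 40 points right of 0.

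In DRG, collagen RNA comes from the fibroblast sheath, vessels and glia around the neurons as well as from other cells, and the tissue itself was not injected. No collagen passed the test here either. Several fibrillar, type VI and basement membrane chains had their highest group mean at day 1. Col1a1, Col1a2, Col3a1, Col4a1, Col5a1, Col15a1 and Col18a1 were among those that also had their lowest at day 6. At day 1, edgeR called 0 of 43 collagens and 26 of 15461 genes (0.168%), limma voom called 0 and DESeq2 2 (Col6a1 and Col8a2). At an unadjusted p under 0.05 were 13 collagens, 9 higher and 4 lower, against 7.4% of all genes. The median was 0.11 against -0.001 for all genes, and 0.11, 0.11 and 0.14 for the fibrillar, basement membrane and other classes. All 8 basement membrane chains had a log2 fold change above 0.

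The type VI chains, which build beaded microfilaments around cells, were among the higher ones at day 1. Col6a1 read 92.3, 118 and 128 CPM in control, 177, 142 and 162 CPM at day 1 and 116, 124 and 109 CPM at day 6. All 3 day-1 values exceeded the other 6, and the log2 fold change at day 1 was 0.51 ± 0.12 (edgeR adjusted p = 0.268). Col6a3, its larger partner chain, gave 0.26 ± 0.11 (edgeR adjusted p = 0.618), with groups that overlapped. Col6a4 was again the chain with the largest change among those of smallest p, at 0.141, 0.291 and 0.225 CPM in control, 0.913, 0.456 and 0.850 CPM at day 1 and 0.718, 0.426 and 0.652 CPM at day 6, from 3 to 8 counts per control library and 13 to 28 in the others. Every agonist value was above every control value, with log2 fold changes of 1.70 ± 0.41 at day 1 (edgeR adjusted p = 0.253) and 1.41 ± 0.42 at day 6 (edgeR adjusted p = 0.995). Both changes share the same 3 control libraries. DRG control library 1, which had the most reads outside genes, was the lowest control for Col6a1 and Col6a4, and without it their day-1 values were 0.37 and 1.5 on the log2 scale (edgeR adjusted p = 0.38 and 0.597).

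Col3a1 read 465, 644 and 608 CPM in control and 735, 679 and 772 CPM at day 1, without overlap, a log2 change of 0.35 ± 0.11 (edgeR adjusted p = 0.455). Col8a2, a short-chain collagen, read 23.3, 32.5 and 28.9 CPM in control and 41.0, 40.2 and 34.3 CPM at day 1, without overlap, a log2 change of 0.45 ± 0.11 (edgeR adjusted p = 0.286). Col13a1, a transmembrane chain, was lower without overlap, at 0.986, 1.49 and 1.16 CPM in control and 0.685, 0.456 and 0.782 CPM at day 1 (-0.93 ± 0.28, edgeR adjusted p = 0.373). Groups did not overlap for 6 collagens higher and 1 lower, against 7.55% and 5.65% of all genes. Summed fibroblast markers, 7 genes with none at 0, read 1057, 1314 and 1351 CPM in control, 1703, 1374 and 1580 CPM at day 1 and 1094, 1278 and 1313 CPM at day 6, so that their day-1 values too lay above all others, and their part in the collagen values was not tested. Control library 1 was also the lowest control for Col3a1, Col8a2 and these markers. Without it, Col3a1 gave 0.21 and Col8a2 0.32 on the log2 scale (edgeR adjusted p = 0.745 and 0.575), the medians of the fibrillar, basement membrane and other classes were -0.007, 0.16 and 0.038, and 9 collagens had an unadjusted p under 0.05. The part of the reads outside genes in these values was not tested. Col1a1 and Col4a1, the abundant fibrillar and network chains, were at 0.01 ± 0.20 and 0.02 ± 0.16, with 95% intervals of -0.46 to 0.49 and -0.33 to 0.38. For 31 of 43 collagens the 95% interval lay within a 2-fold change either way, a count not set here against the share of all genes.

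At day 6 against control, edgeR called 0 of 43 collagens and 0 of 15461 genes (0%), and limma voom and DESeq2 called 0 collagens. Here 28 of 43 log2 fold changes were below 0, with a median of -0.08, and 5 collagens had an unadjusted p under 0.05 (1 higher, 4 lower; 3.6% of all genes did). Col15a1 read 196, 253 and 244 CPM at day 6, all below the 267 to 324 CPM of the controls, a log2 change of -0.36 ± 0.11 (edgeR adjusted p = 0.995). Col18a1, whose C-terminal fragment is endostatin, read 97.0, 100.5 and 87.5 CPM in control and 73.8, 87.7 and 73.7 CPM at day 6, a log2 fold change of -0.28 ± 0.08 with overlap of 1 value (edgeR adjusted p = 0.995). Col1a1 at 598, 723 and 593 CPM overlapped the controls at 666, 836 and 1208 CPM, a log2 change of -0.50 ± 0.20 (edgeR adjusted p = 0.995). Leaving out 1 library at a time, it ran from -0.685 to -0.239. Control library 3, at 1208 CPM, also had the highest sum of 9 cartilage and bone markers in DRG (64.1 CPM against 47.4 to 53.6 CPM). The part of those markers in the Col1a1 value was not tested. Groups did not overlap for 2 collagens higher and 3 lower, against 5.16% and 3.72% of all genes.

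Between the agonist groups, the lower values were at day 6. All 12 collagens with an unadjusted p under 0.05 were lower at day 6, against 6.83% of all genes, and 31 of 43 log2 fold changes were below 0. None passed edgeR's adjusted threshold, which 16 of 15461 genes did (0.103%). Limma voom called 0 collagens and DESeq2 4: Col15a1 and Col3a1 (DESeq2 adjusted p = 5.02e-06 and 0.000798), Col6a1 and Col6a2. Class medians were -0.21 for fibrillar, -0.31 for basement membrane and -0.12 for other collagens, against -0.004 for all genes. Groups did not overlap for 13 collagens lower and 1 higher, against 6.47% and 6.01% of all genes. Both this comparison and that of day 1 with control use the 3 day-1 libraries, so their values are not independent.

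Col15a1 had the smallest p, with 376, 318 and 387 CPM at day 1 against 196, 253 and 244 CPM at day 6, a log2 fold change of -0.64 ± 0.11 (1.56-fold lower; edgeR adjusted p = 0.114). Controls lay between the agonist groups except for control library 2, at 324 CPM, which lay above day-1 library 2. Col3a1 read 735, 679 and 772 CPM at day 1 and 467, 536 and 524 CPM at day 6, a log2 change of -0.52 ± 0.11 (edgeR adjusted p = 0.229). In a fit of only these 2 groups it passed (edgeR adjusted p = 0.0371). Col18a1 (-0.30 ± 0.08), Col6a1 (-0.46 ± 0.12) and Col6a2 (-0.47 ± 0.13) followed, each without overlap (edgeR adjusted p = 0.332, 0.391 and 0.482). Col1a1, Col1a2, Col5a1 and Col5a2, chains of the type I and V fibrils, gave -0.52 ± 0.20, -0.35 ± 0.11, -0.42 ± 0.13 and -0.18 ± 0.08, each without overlap (edgeR adjusted p = 0.695, 0.547, 0.557 and 0.716). The third type V chain, Col5a3, read 504, 515 and 484 CPM at day 1 and 342, 507 and 528 CPM at day 6, overlapping, with the highest and the lowest value both at day 6 (-0.13 ± 0.15, edgeR adjusted p = 0.9). Col12a1 and Col14a1 did not share the direction or the size, at 0.30 ± 0.19 and -0.04 ± 0.12. DRG day-6 library 1 was the lowest of the 9 DRG libraries for 13 of 43 collagens (30.2%, against 16.2% of all genes), and without it Col15a1 gave -0.53 (edgeR adjusted p = 0.182).

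**Figure D4:**
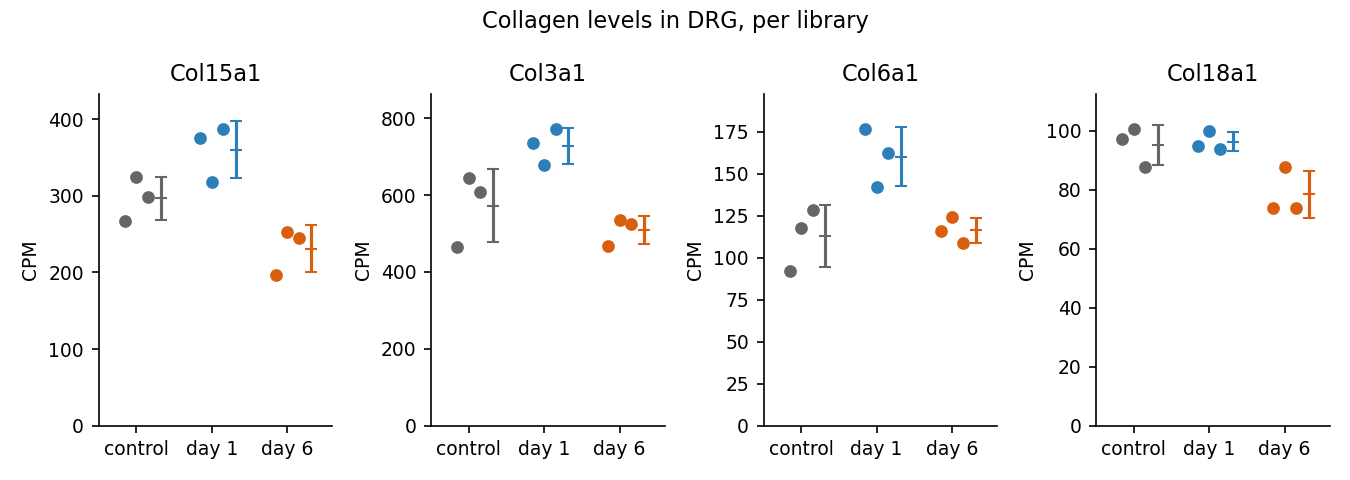
Levels (CPM) of Col15a1, Col3a1, Col6a1 and Col18a1 in each DRG library (points) with the group mean and SD beside them (n = 3). In each of the 4 panels the day-1 points lie above the day-6 points, and for Col6a1 all 3 day-1 points lie above both other groups.

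Whether a collagen responded differently in paw and DRG was tested as the interaction in the 18-library fit. For day 1, day 6 and day 6 against day 1, edgeR called 0 collagens each, with 0, 82 and 133 of 16461 genes called (0%, 0.498% and 0.808%). At an unadjusted p under 0.05 were 3, 4 and 7 of 43 collagens, against 9.68%, 7.73% and 12.3% of all genes. Limma voom called 0, 0 and 1 collagen (Col11a1), and DESeq2 called 0, 1 (Col14a1) and 3 (Col2a1, Col6a4 and Col16a1). The smallest p were those of Col17a1 at day 1 (paw change minus DRG change -0.86 ± 0.32, edgeR adjusted p = 0.418), Col14a1 at day 6 (1.1 ± 0.30, edgeR adjusted p = 0.162) and Col2a1 for day 6 against day 1 (-2.12 ± 0.55, edgeR adjusted p = 0.0932). The DRG part of the Col17a1 value rests on 16 to 48 counts per library, highest in CPM in day-1 library 2 (1.46 CPM). That library held 131 CPM of the 5 keratinocyte genes, against 40.0 to 80.0 CPM in the other DRG libraries. The part of these genes in the Col17a1 value was not tested. Col15a1 differed by 0.67 ± 0.29 at day 6 (edgeR adjusted p = 0.56), with a log2 fold change of 0.32 in paw and -0.36 in DRG.

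Spinal cord was compared between the 2 agonist days only. Most collagens read higher at day 6, but the same 3 libraries were highest for most of them. Those libraries also had the highest sums of the meningeal genes and the highest Schwann cell scores. Their sums of 5 endothelial genes (147 to 180 CPM against 124 to 140 CPM) were the highest too. So were those of 5 mural genes (182.5 to 218 CPM against 96.65 to 178 CPM). By score, day-6 library 2 exceeded day-1 library 2 in both of these lists. The part of these 2 lists in the collagen values was not tested. EdgeR called 0 of 40 collagens and 0 of 15096 genes (0%), and limma voom and DESeq2 called 0 collagens. At an unadjusted p under 0.05 were 3 collagens, 1 higher and 2 lower, against 9.7% of all genes. The median was 0.24 against 0.009 for all genes, with 34 of 40 above 0, and class medians of 0.73, 0.56 and 0.13. Day-1 library 2 and day-6 libraries 1 and 3 were the 3 highest libraries for 31 of 40 collagens (77.5%) and for 17.5% of all genes tested. By class this held for 9 of 11 fibrillar, 8 of 8 basement membrane and 14 of 21 other collagens.

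Col3a1 read 28.4, 82.8 and 30.3 CPM in cord at day 1 and 128, 26.6 and 135 CPM at day 6, and Col4a1 read 71.9, 163 and 97.6 CPM at day 1 and 268, 68.2 and 273 CPM at day 6. In both, day-6 library 2 was the lowest of all 6 libraries while the other day-6 libraries were the highest. Their log2 fold changes were 1.03 ± 0.80 and 0.87 ± 0.65 (edgeR adjusted p = 0.674 and 0.658). The 8 summed meningeal markers, none at 0, read 136, 388 and 188 CPM at day 1 and 550, 153 and 489 CPM at day 6, and the 7 summed fibroblast markers 183, 442 and 261 CPM and 669, 189 and 602 CPM. With the meningeal score as a covariate, the log2 fold changes of Col3a1 and Col4a1 were 0.29 and 0.22, and the class medians 0.11, 0.12 and -0.02.

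Of the 3 cord chains with the smallest p, Col11a2 and Col13a1 did not follow that pattern. Col11a2, a fibrillar chain, read 68.7, 71.4 and 77.7 CPM at day 1 and 59.0, 69.8 and 59.1 CPM at day 6, overlapping in 1 library, a log2 change of -0.21 ± 0.09 (edgeR adjusted p = 0.5). Col13a1 read 2.33, 2.66 and 2.58 CPM at day 1 and 2.05, 1.77 and 1.77 CPM at day 6, without overlap, a log2 change of -0.43 ± 0.19 (edgeR adjusted p = 0.511). Col6a5, a type VI chain, read 0.917, 0.940 and 0.540 CPM at day 1 and 1.64, 0.864 and 3.6 CPM at day 6, overlapping in 1 library, a log2 change of 1.30 ± 0.53 (edgeR adjusted p = 0.503). Without day-6 library 2, Col11a2 and Col6a5 passed (edgeR adjusted p = 0.0415 and 0.0431), as did 818 of all genes. That is 2 of 40 collagens, and the fit of all 6 libraries tested 15096 genes. The day-6 libraries left, 1 and 3, had the highest meningeal sums (550 and 489 CPM), so that fit does not separate day from meningeal level. Col9a3, chosen after its values were seen as an abundant cord chain outside the pattern, read 29.1, 27.2 and 28.0 CPM at day 1 and 23.1, 28.9 and 25.9 CPM at day 6. Groups did not overlap for 0 collagens higher and 1 lower, against 8.17% and 8.21% of all genes.

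**Figure D5:**
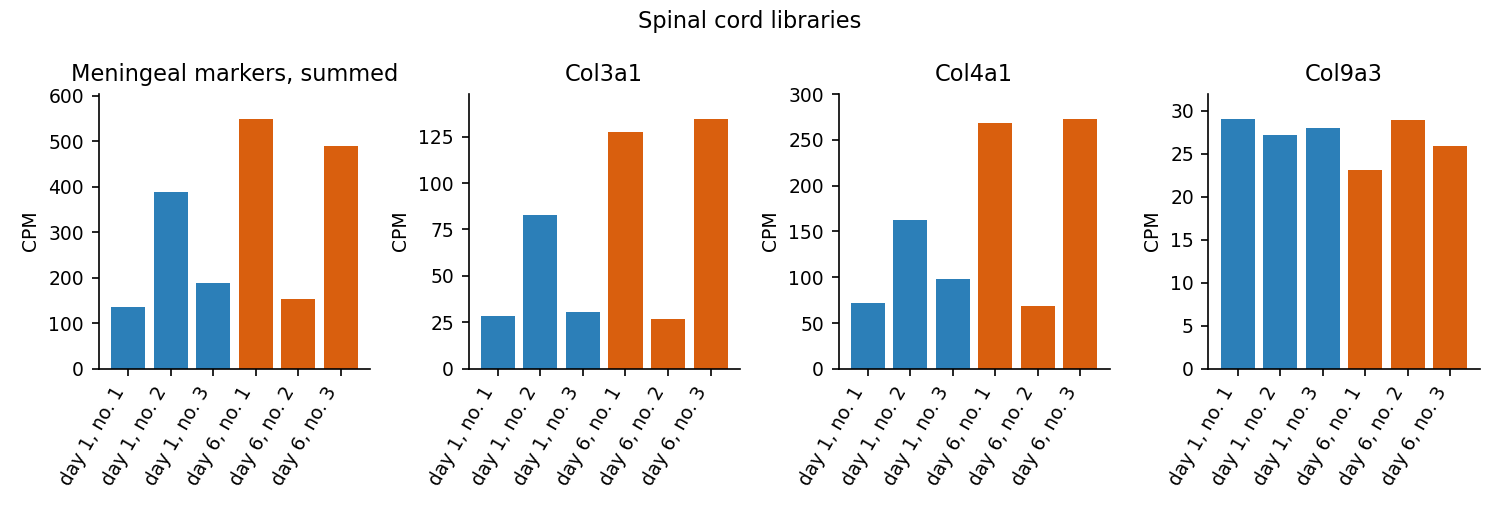
Bars show CPM in each of the 6 spinal cord libraries for 8 summed meningeal markers and for Col3a1, Col4a1 and Col9a3, with day 1 in blue and day 6 in orange. The tall bars of the first 3 panels are the same libraries (day-1 library 2, day-6 libraries 1 and 3), while Col9a3 stays between 23.1 and 29.1 CPM.

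Replicates of a group differed more in collagens than in genes at large. The median range over 3 replicates, as log2 of CPM plus 1, was 0.62 for collagens against 0.36 for all genes in paw controls. It was 0.36 against 0.18 in DRG controls and 1.11 against 0.25 in cord at day 6. The added 1 narrows the range of genes with low counts, and collagens and all genes were not matched by level. In cord at day 6 it was 1.69 for fibrillar, 0.88 for basement membrane and 0.75 for other collagens. The median for all collagens was lowest in DRG at day 1, at 0.27.

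The genes that fold, trim, bind and degrade collagen were taken from lists of 85 symbols in 6 groups: modification and folding, processing and crosslinking, receptors, degradation, profibrotic signalling and the laminin, nidogen and perlecan partners of basement membranes. EdgeR called 0 of the 76 tested in paw or DRG and 0 of the 73 tested in cord, in each of the 7 comparisons. At an unadjusted p under 0.05, 4 were higher and 3 lower in paw at day 1 (10.6% of all genes tested had such a p), 3 and 1 at day 6 (9.74%), and 0 and 3 for day 6 against day 1 (14%), all 3 below the share of all genes. In DRG the counts were 12 and 1 at day 1 (7.4%), 3 and 4 at day 6 (3.6%), and 1 and 14 for day 6 against day 1 (6.83%), each above that share. In cord they were 6 and 0 (9.7%), which is below it. Their median log2 fold changes were 0.12, 0.06 and -0.05 in paw, 0.12, -0.01 and -0.13 in DRG and 0.25 in cord.

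In DRG, the pathway genes of smallest p between the agonist groups were lower at day 6. Serpinh1, the collagen chaperone HSP47, read 257, 258 and 228 CPM in control, 285, 259 and 258 CPM at day 1 and 190, 221 and 188 CPM at day 6. Its day-6 values lay below all others, with log2 fold changes of -0.42 ± 0.08 against day 1 (edgeR adjusted p = 0.0982) and -0.31 ± 0.08 against control (edgeR adjusted p = 0.995). Pcolce, which enhances removal of the procollagen C-terminus, read 112, 104 and 104 CPM at day 1 against 86.4, 91.4 and 78.8 CPM at day 6, a log2 change of -0.32 ± 0.07 (edgeR adjusted p = 0.241). Of 19 folding genes 16 had a log2 fold change below 0 in that comparison, and of 15 basement membrane partners 13 did, while 48.5% of all genes had one above 0. Over all the pathway lists together it was 55 of 76, and the other lists are not given singly. Mmp14, a membrane-bound collagenase, was higher at day 1 by 0.35 ± 0.07 (edgeR adjusted p = 0.127) and in cord at day 6 by 0.51 ± 0.10 (edgeR adjusted p = 0.463), each without overlap. Lamb3, a chain of the epithelial laminin, read 0.218 to 0.423 CPM in DRG controls and 0.791 to 1.43 CPM at day 1, a log2 change of 1.67 ± 0.38 (edgeR adjusted p = 0.197). These levels are low, and the log2 change was 1.41 to 1.87 leaving out 1 library at a time. DRG day-1 library 2 also held the most keratinocyte RNA of the DRG libraries (131 CPM over 5 genes), and its part in Lamb3 was not tested.

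In paw, Lama3, another chain of the epithelial laminin, was lower at day 1 by a log2 change of -0.52 ± 0.17 (edgeR adjusted p = 0.392), the direction of Col17a1. Smad7, an inhibitor of TGFβ signalling, gave 0.53 ± 0.18 at day 1 (edgeR adjusted p = 0.4) and -0.51 ± 0.18 for day 6 against day 1 (edgeR adjusted p = 0.265). Tgfb1, which encodes a cytokine that induces collagen synthesis, read 13.4, 18.6 and 15.1 CPM in control and 28.7, 25.8 and 22.3 CPM at day 6, without overlap, a log2 change of 0.70 ± 0.20 (edgeR adjusted p = 0.2). Leprel1, which with Tgfb1 had the smallest p of the pathway genes at day 6, was lower. Leaving out 1 library at a time, its log2 fold change ran from -0.324 to -0.239 against control and from -0.264 to -0.201 against day 1. Lair1, an inhibitory collagen receptor of immune cells named outside that rule, read 1.01, 2.59 and 3.34 CPM in control and 8.18, 6.74 and 4.47 CPM at day 6, without overlap, a log2 change of 1.48 ± 0.44 (edgeR adjusted p = 0.237).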

How the data were processed

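RNA from paw biopsies, DRG and spinal cord was sequenced as 50 base single reads after poly(A) selection with a stranded kit, per the labels' protocols. The deposited values are raw counts of reads per gene symbol, 1 file per library; per the submitters' processing notes bcl2fastq, TopHat2, HTSeq and the mm9 build were used, with versions and roles not given in the sources used here. The 5 summary lines of each file were removed. Replicates were compared and 0 of 24 pairs were identical.

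Counts were fitted over all genes with edgeR 4.0.16 in R 4.3.3: TMM scaling, the default filter on low counts, the quasi-likelihood F test and Benjamini-Hochberg adjustment, with a threshold of 0.05. Each tissue was fitted alone (9 paw, 9 DRG and 6 cord libraries). A joint fit of 18 libraries gave paw against DRG and the interactions. SE and 95% intervals are per gene. Exon lengths (GENCODE M21) were used for levels per kilobase only, and RefSeq promoter windows on GRCm38.p6 for sequence, neither being the authors' build. Alternatives were limma voom 3.58.1, DESeq2 1.42.0, RLE scaling, other filters, only the groups compared, a replicate block, muscle or meningeal covariates and leaving out each library. The scripts were checked on simulated counts.

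Named genes were 15 set chains (Col1a1, Col1a2, Col3a1, Col5a1, Col5a2, Col4a1, Col4a2, Col15a1, Col18a1, Col6a1, Col6a3, Col12a1, Col14a1, Col7a1, Col17a1), and members past the threshold (at most the 12 of smallest p) or, where fewer than 5 passed, the 5 of smallest p. Pathway genes were named from the 2 of smallest p in each comparison, apart from Lair1. Other chains named, and Lair1, were chosen after their values were seen. The members and lists were chosen with earlier results of these data known.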

Additional observations from a re-analysis of the deposited data

How the results depend on the processing

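The number of collagens called was 0 in every treatment comparison and interaction with edgeR, and stayed within 1.5 times the reported count in 154 of 166 alternatives. The other 12 were as follows. DESeq2 called 1 in paw at day 1, 2 in paw at day 6, 2 in paw between the days, 2 in DRG at day 1, 4 in DRG between the days, and, for paw minus DRG, 1 at day 6 and 3 between the days. Limma voom called 2 in paw between the days and 1 for paw minus DRG between the days. A fit of only the 2 groups compared called 1 in DRG between the days. Leaving out 1 library at a time gave 0 to 2 in cord, with 2 only without day-6 library 2. Libraries with the same number did not pair (correlations of deviations from -0.734 to 0.432, the highest being with its own number for 2 of 9 paw, 0 of 9 DRG and 0 of 6 cord libraries). With the replicate number as a block, 1 collagen was called in paw at day 6 (Col6a4, edgeR adjusted p = 0.0462). The cause of these differences was not tested.

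Class medians moved by less than the replicate spread in 295 of 312 alternatives. With the muscle covariate the fibrillar median in paw at day 1 was 0.082 and the median of other collagens in DRG at day 6 was 0.048. In cord the median of other collagens was 0.439 with limma voom and the basement membrane median 0.123 with the meningeal covariate. Leaving out 1 library, the fibrillar medians ranged from 0.131 to 0.586 in paw at day 1, -0.007 to 0.142 in DRG at day 1 and -0.304 to -0.082 in DRG at day 6, and those of other collagens from 0.021 to 0.228 in DRG at day 1, -0.08 to 0.087 at day 6 and -0.174 to -0.019 between the days. The fibrillar median in paw between the days ranged from -0.229 to 0.257, and in cord the fibrillar, basement membrane and other medians from 0.448 to 1.116, 0.27 to 0.852 and 0.062 to 0.398.

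The counts of collagens at an unadjusted p under 0.05 moved by over 1.5 times in 26 of 104 alternatives. Leaving out 1 library, they ranged from 1 (without day-1 library 2) to 9 (without day-1 library 3) in paw at day 1, 3 to 6 in paw at day 6 (3 without day-6 library 1 or 2), 3 to 9 in paw between the days (3 without day-1 library 2 or day-6 library 2), 6 (without day-1 library 1) to 13 in DRG at day 1, 3 (without day-6 library 1) to 9 (without control library 3 or day-6 library 2) in DRG at day 6, 9 to 14 in DRG between the days and 0 to 12 (without day-6 library 2) in cord. All genes called in this way numbered 0 to 155 in paw at day 6, 0 to 141 in paw between the days (141 without day-6 library 3), 8 to 35 in DRG at day 1 and 1 (without day-1 library 1) to 24 (without day-1 library 3) in DRG between the days.

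Of 1507 alternative values of single genes, 1455 kept direction and side of the threshold, 30 passed it and 22 reversed. No reversed chain was called in the comparison concerned. Col6a1 turned to -0.019 in paw between the days with limma voom and to -0.115 in cord with the meningeal covariate. Leaving out 1 library gave -0.299 to 0.125 for Col1a1 and -0.301 to 0.124 for Col3a1 in paw at day 1, -0.17 to 0.373 for Col1a1 and -0.265 to 0.158 for Col4a1 in paw at day 6, -0.16 to 0.422 for Col1a1 and -0.104 to 0.241 for Col6a1 in paw between the days, -0.17 to 0.277 for Col1a1 and -0.105 to 0.125 for Col4a1 in DRG at day 1, and -0.087 to 0.142 for Col6a1 in DRG at day 6. For Col15a1 in DRG between the days, adjusted p ranged from 5.02e-06 to 0.425. Depth limits Col6a4 in paw, Col2a1 in paw and Col4a6 in DRG, which had at most 76, 30 and 17 counts in a library.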
